A study of Mus musculus with 15 samples.

Results

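Solute carriers are the membrane proteins that move ions, sugars, amino acids, phosphate and organic acids across cell membranes, and in the nephron they reclaim most of the filtered solute. Each segment of the tubule carries its own set, which matures late, well after the renal vesicle has formed. The families described here are those of bicarbonate and anion exchange (Slc4a), sodium-coupled sugars and related solutes (Slc5a), neurotransmitters and amino acids (Slc6a), amino acids (Slc7a), sodium-proton exchange (Slc9a), cation-chloride cotransport (Slc12a), sulfate and carboxylates (Slc13a), organic ions (Slc22a) and phosphate (Slc34a). A gene was a member if its symbol was one of these stems followed by a number and nothing else. There were 98 such genes among the 19938 genes on the arrays that could be named singly, and the probe set with the highest mean over the 15 arrays stood for each gene.

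Green cells were sorted from the kidneys of Crym-EGFP pups, in which a bacterial artificial chromosome transgene (Tg(Crym-EGFP)82Gsat) expresses green fluorescent protein under Crym regulatory sequence, on a CD-1 strain background. All samples shared this transgene, fostering to CD-1 females, trypsin dissociation and a pool of about 4 kidneys, and the sex was labelled unknown. The 12 samples of P0, P1, P2 and P3 (postnatal days, 3 samples each) are labelled cap mesenchyme, the nephron progenitors, and at P4 the 3 samples carry the label renal vesicle, the early epithelium that arises from those progenitors, although the design text speaks of cap mesenchyme throughout. Compartment and age therefore change together at P4 and cannot be told apart, and the gate of the sort is not given. Whether the 3 pools of each day came from separate litters is not stated, so the p-values measure only the spread between these samples.

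The labels were checked against marker genes. All 8 cap mesenchyme markers, among them Crym, Itga8 and Meox1, fell at P4, and their summed level went from log2 12.27 to 13.72 in the P0 to P3 samples to 10.68 to 10.91 at P4. Of 8 renal vesicle markers 6 rose, with a summed level of 10.48 to 12.60 in P0 to P3 and 12.33 to 13.08 at P4, so that the groups overlapped. Within P0 to P3 the slope test already called 5 of the 8 renal vesicle markers as rising, and 5 of the 8 cap mesenchyme and 3 of the 7 stroma markers as falling. At P4, of 7 stroma markers 2 fell, and of 6 endothelial and 6 macrophage markers 0 and 1 passed the level filter explained below, with none called. On every day replicate 1 differed in its spread of values from the other 2, with first-replicate interquartile ranges of 2.14 to 2.27 against 2.52 to 2.77, and 42.5% of all genes differed between them and replicates 2 and 3 with the day in the model. Comparisons are for that reason also given with the first replicates as a block and within replicates 2 and 3. In samples of sorted cells, fewer cells of a kind and less RNA per cell cannot be told apart.

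The first question was how many of these transporters passed a level filter in the sorted cells. A gene was kept if it exceeded the median of all deposited values, log2 6.86, in 3 or more arrays. Of the 98 members 50 were kept, or 51%, against 59.6% of all genes. At the edge of the filter, Slc5a8, Slc6a13, Slc7a11, Slc12a5 and Slc12a8 passed with exactly 3 arrays, and Slc7a3 and Slc22a21 missed it with 2. Slc5a8, Slc5a11 and Slc12a8 passed only through first replicates, in which they were higher by 0.44, 0.30 and 0.31 with the day in the model. Only 18 exceeded the median in all 15 arrays, 42 did so in no array and 6 in 1 or 2 arrays. A value below this median is a dim signal and does not show that a gene is silent. Nor does a value above it show that a gene is expressed, since it is not a detection limit. Aqp2, a collecting duct marker, exceeded it in 14 arrays, and Alas2, an erythroid marker, in 15.

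The cation-chloride cotransporters had the largest kept share of the families, 7 of 8 members, beside 59.6% of all genes. Of these members 4 were above the median in every array. Of the 7, Slc12a5 and Slc12a8 were kept with exactly 3 arrays, Slc12a8 only through first replicates. The sodium-proton exchangers were at the other end, with only Slc9a8, an exchanger of the Golgi and endosomes, kept of 7. The kept members numbered 6 of 9 in Slc4a, 7 of 11 in Slc5a, 7 of 18 in Slc6a, 8 of 15 in Slc7a, 2 of 5 in Slc13a, 10 of 22 in Slc22a and 2 of 3 in Slc34a. In the Slc22a family the related genes Slc22a26, Slc22a27, Slc22a29 and Slc22a30 were above the median in no array. These paralogs are alike in sequence, and 1 further probe set that the platform assigns to Slc22a28, Slc22a29 and Slc22a30 together was not used.

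**Figure D1:**
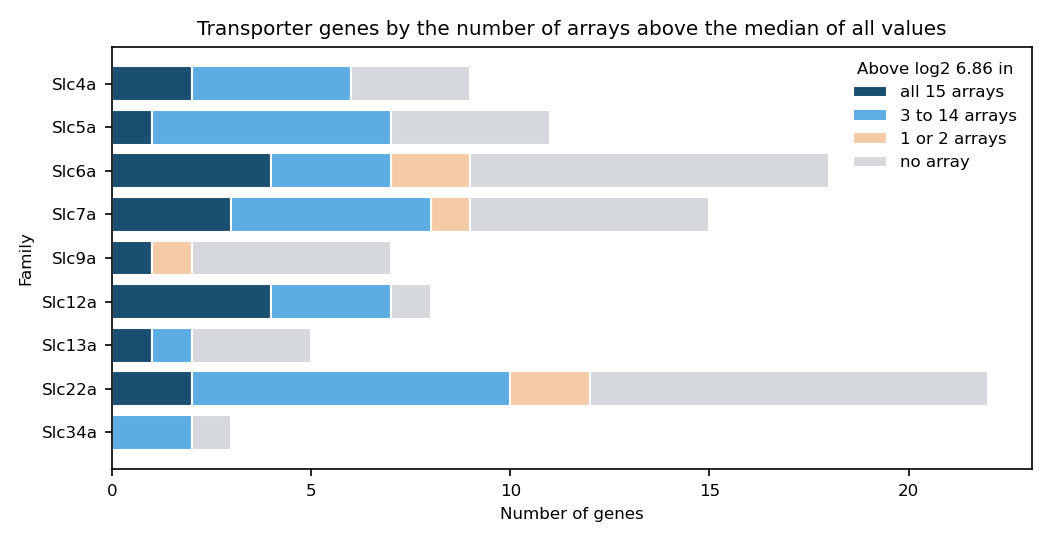
Each bar gives the number of genes of a family (vertical axis) by how many of the 15 arrays showed a value above the median of all values, log2 6.86. The Slc12a family has 7 of 8 genes above it in 3 or more arrays, and the Slc9a family 1 of 7.

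Of 21 classical nephron transporters measured, 12 were kept, a share near the 59.6% of all genes, and 8 were above the median in no array. The latter included the sodium-glucose cotransporter Slc5a1, the neutral amino acid transporters Slc6a18 and Slc6a19, the apical cystine carrier Slc7a9 and its basolateral counterpart Slc7a8, the proximal proton exchanger Slc9a3, the sulfate transporter Slc13a1 and Slc12a1, the furosemide-sensitive cotransporter of the thick ascending limb. Slc12a1 lay at 5.35 ± 0.26 (SD, n = 3) at P0 and 5.48 ± 0.22 at P4. Slc22a2, an organic cation transporter, exceeded the median in 1 array. None of these genes was tested in the main setting, and none passed when all 98 were tested.

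Other classical transporters passed the level filter without a change that could be called. The proximal phosphate transporter Slc34a1 was at 6.90 ± 0.13 (SD, n = 3) at P0 and 7.07 ± 0.05 at P4, and the difference between P4 and the mean of P0 to P3 was 0.13 with a 95% confidence interval of -0.08 to 0.35. For Slc4a4, the basolateral bicarbonate exit path of the proximal tubule, it was 0.19 (-0.04 to 0.41), and for Slc5a2, which reclaims most filtered glucose, 0.04 (-0.23 to 0.31). For Slc12a3, the thiazide-sensitive cotransporter of the distal convoluted tubule, it was -0.04 (-0.34 to 0.26). In all 4 genes the values of P4 overlapped those of the earlier days. Slc7a7, Slc13a3, Slc22a12 and Slc34a3 also passed the filter and were not called, with differences of -0.02 to 0.18.

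Slc4a1 needs a marker beside it, since it encodes both the exchanger of acid-secreting collecting duct cells and the band 3 protein of red cells. It was at 7.02 ± 0.19 (SD, n = 3) at P0 and 7.09 ± 0.11 at P4, with a difference of 0.05 (-0.16 to 0.27). Of 5 erythroid markers 2 passed the filter and neither was called, and their summed level was 8.56 to 8.87 in P0 to P3 and 8.61 to 8.92 at P4.

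The second question was which members changed over P0 to P4. An F test in limma of any difference among the 5 days called 3 of the 50 kept members, which is 6%, against 5.37% of all genes tested. The 3 genes were Slc7a11, Slc12a2 and Slc6a9. The contrast of P4 with the mean of P0 to P3 called 6 members. Slc7a11, Slc22a6 and Slc22a8 rose, which is 6% of the kept members against 3.41% of all genes (Slc7a11 had to differ to pass the filter, as described below), and Slc12a2, Slc6a9 and Slc7a2 fell, 6% against 2.32%. The median difference was 0.04 over the kept members and 0.00 over all genes. With the first replicates as a block 8 members were called in the F test and 8 at P4, and within replicates 2 and 3 the counts were 3 and 5. Calls over all genes went up with the block too, from 638 to 1386 in the F test and from 681 to 1363 at P4. Leaving out P4 replicate 1 left 3 members called at P4, and leaving out P4 replicate 2 or 3 left 2.

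**Figure D2:**
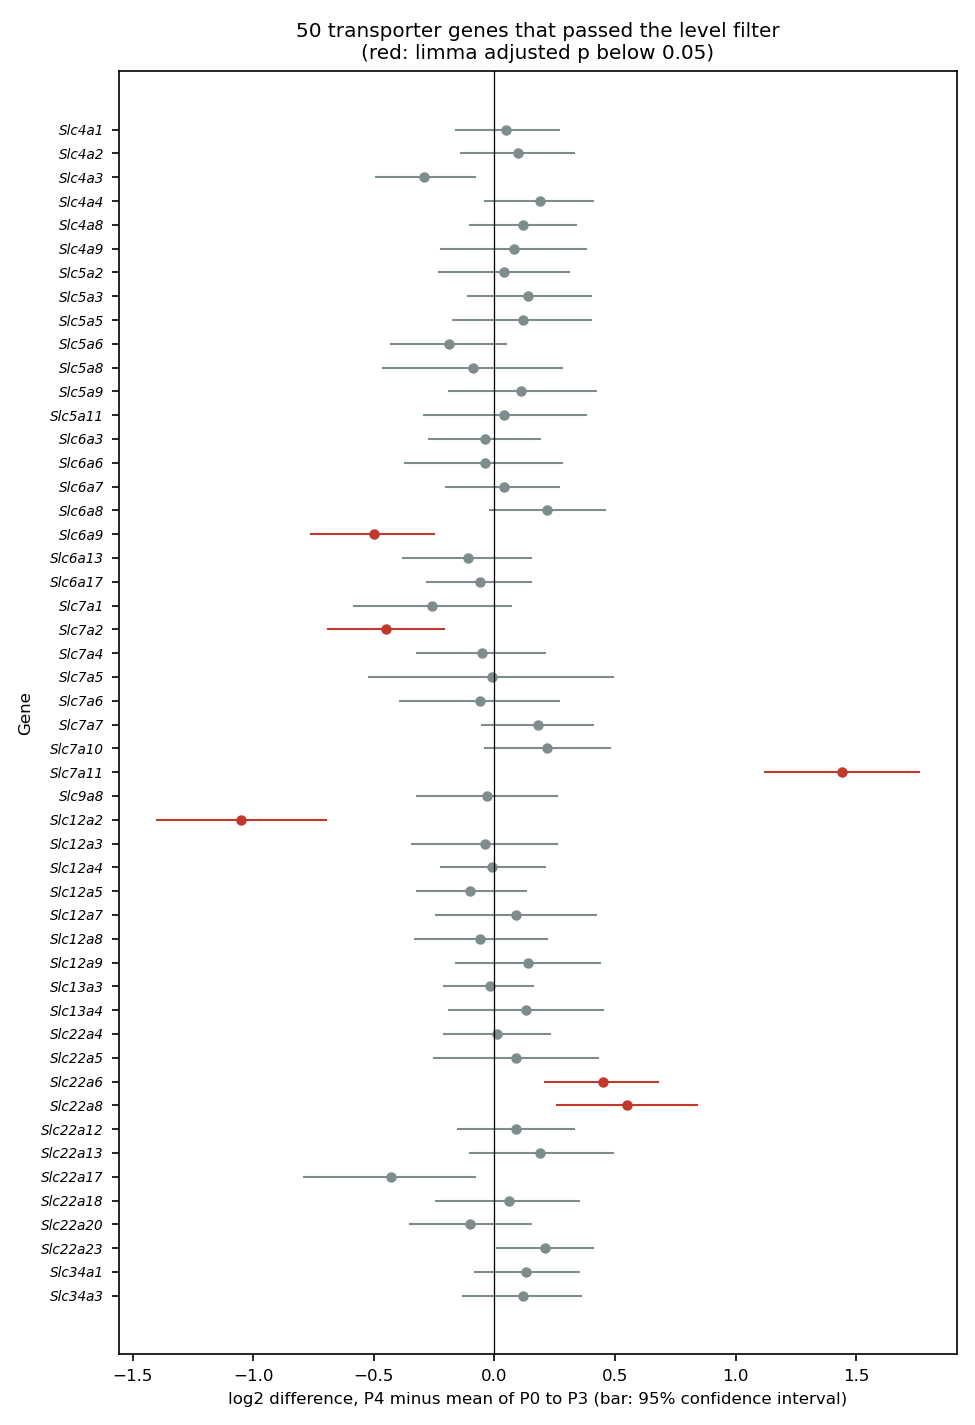
Points give the log2 difference of P4 minus the mean of P0 to P3 (horizontal axis) for the 50 transporter genes that passed the level filter (vertical axis), and bars the 95% confidence interval. The 6 red genes passed at limma adjusted p below 0.05, from Slc12a2 at -1.05 to Slc7a11 at 1.44, and the other 44 lie between -0.43 and 0.22.

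Among the 50 probe sets that stood for the kept members, the steepest change was in the amino acid carriers of Slc7a. Slc7a11 (probe set 10498024) encodes the light chain of the antiporter that imports cystine in exchange for glutamate and so feeds glutathione synthesis. Its log2 values were 5.65, 5.55 and 5.13 in P0 replicates 1 to 3, 5.77, 5.76 and 5.51 at P1, and 5.89, 5.74 and 5.78 at P2. They were 5.99, 6.79 and 6.55 at P3 and 7.12, 7.44 and 7.28 at P4. The day means went up at each step, from 5.45 to 7.28, and all 3 P4 samples lay above the 12 earlier ones.

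Slc7a11 rose 3.56-fold from P0 to P4 and 2.71-fold from the mean of P0 to P3 (log2 1.44, SE 0.15, limma adjusted p = 2.41e-05). Over the samples labelled cap mesenchyme it rose by 0.31 per day (SE 0.06, adjusted p = 0.0111), the only member called in the slope over P0 to P3, where 1.65% of all genes were called as rising and 1.48% as falling. That call ended without P0 replicate 3 (adjusted p = 0.0547). Renal vesicle markers rose over the same samples, among them Jag1 by 0.81 and Cdh6 by 0.53 per day, and their part in the Slc7a11 slope was not tested. From P3 to P4 it rose by 0.84 (SE 0.19, adjusted p = 0.0407), again alone among the members, against 1.04% of all genes that rose. The last call is the least firm. It was lost in 11 of the 15 omissions of a sample, with adjusted p up to 0.198, and held only when P0 replicate 1, P0 replicate 3, P2 replicate 1 or P3 replicate 2 was left out. It was also lost under 6 of 11 other settings and passed with the replicate number as a block (0.0108). Slc7a11 passed the level filter only through its 3 P4 arrays, so it had to differ to be tested, but with no filter it still passed in the F test and at P4.

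The promoter of Slc7a11 is shown because the data turn most on this gene. The 250 bases before its annotated start (RefSeq, GRCm38.p6, chr3:50443614-50443863, minus strand, 5′ to 3′) are printed with both matches to TGATGNAA in capitals. These letters are the composite site of the transcription factor ATF4 with C/EBP partners, which amino acid shortage engages.
Slc7a11: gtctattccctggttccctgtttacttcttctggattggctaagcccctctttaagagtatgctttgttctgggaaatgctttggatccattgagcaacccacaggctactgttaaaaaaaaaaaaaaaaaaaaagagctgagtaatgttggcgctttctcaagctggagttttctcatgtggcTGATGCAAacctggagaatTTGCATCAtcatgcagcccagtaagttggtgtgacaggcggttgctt
The motif occurred at 66 to 59 bases before the start on the same strand and at 47 to 40 on the opposite strand. It is held by 3.45% of 32851 such windows over all genes, both strands counted, and by 5 of the 103 windows of members. These belong to 4 of the 74 members with a window, among them Slc7a7. A match is a description of the letters, not of binding.

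Other genes of the same response were examined. Of 21 tested genes of the amino acid response, Asns, which makes asparagine, fell by 0.56 at P4 (SE 0.11, adjusted p = 0.00418) and Vldlr, a lipoprotein receptor, rose by 0.65 (SE 0.13, adjusted p = 0.00808), and the other 19 were not called. Of all genes, 3.41% rose and 2.32% fell. Atf4 itself differed by -0.07 (SE 0.14). Slc3a2, the heavy chain with which Slc7a11 and several other Slc7a carriers pair at the membrane, was above the median in all 15 arrays and differed by 0.06 (SE 0.13, adjusted p = 0.957).

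Slc7a2 (probe set 10571444), a carrier of arginine, lysine and ornithine, moved the other way. It was at 6.80, 7.14 and 7.27 as the lowest, median and highest of the 12 P0 to P3 samples and at 6.88, 6.34 and 6.70 at P4. Of the P4 samples, 2 lay below all earlier ones and P4 replicate 1 overlapped the P3 samples. It fell 1.37-fold (log2 -0.45, SE 0.11, adjusted p = 0.0294). The call ended without P2 replicate 3 (0.0533), P4 replicate 2 (0.253) or P4 replicate 3 (0.0886).

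All 6 measured carriers from a list of widely used transporters passed the level filter, and of these only Slc7a11 was called. Slc7a5, which imports large neutral amino acids together with Slc3a2, differed at P4 by -0.01 (95% confidence interval -0.52 to 0.49), Slc7a1, the main arginine carrier of growing cells, by -0.26 (-0.58 to 0.07), and Slc7a6 by -0.06 (-0.39 to 0.27). Slc7a5 was also the member in which the first replicates differed most, by -0.65 (SE 0.09, adjusted p = 7.1e-05) with the day in the model. Its first replicates were at 7.96, 8.56, 8.12, 8.52 and 8.23 from P0 to P4, whereas replicates 2 and 3 lay between 8.74 and 9.15. Of the 50 kept members 15 differed between the first and the other replicates, 10 higher and 5 lower in the first, which is 30% against the 42.5% of all genes given above. Slc6a6, Slc12a7, Slc22a17 and Slc7a1 were also lower in the first replicates, by 0.32 to 0.42 in size.

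The organic anion transporters Slc22a6 and Slc22a8 were higher at P4. These neighbours on chromosome 19 encode the basolateral carriers through which proximal tubule cells take up urate, drugs and other organic anions from blood. Slc22a6 (probe set 10461130) was at 6.57, 6.76 and 7.07 as the lowest, median and highest of the P0 to P3 samples and at 7.15, 7.14 and 7.41 at P4. Slc22a8 (probe set 10461115) was at 6.23, 6.83 and 6.97 in the same way and at 7.35, 7.23 and 7.33 at P4. In both genes all 3 P4 samples lay above all 12 earlier samples, as they did in Slc7a11. For Slc7a11 this was fixed by the way it passed the filter, and 2.38% of all genes tested showed it. No member had all P4 samples below the rest (1.4% of all genes).

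The rises were small, 1.36-fold for Slc22a6 (log2 0.45, SE 0.11, adjusted p = 0.0247) and 1.46-fold for Slc22a8 (log2 0.55, SE 0.14, adjusted p = 0.0254), and both genes stayed near the median of all values. Both calls ended without any of the P4 replicates, with adjusted p of 0.0511 to 0.201 for Slc22a6 and 0.0823 to 0.124 for Slc22a8, and that of Slc22a8 also within replicates 2 and 3 (0.0576). Slc22a6 was higher by 0.48 at P4 than at P3 (SE 0.14, adjusted p = 0.159, and 0.0244 with the replicate number as a block).

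Proximal tubule markers outside these families moved in part with them. Their summed level was 10.11 to 10.43 in the P0 to P3 samples and 10.45 to 10.53 at P4. Of 12 such markers 6 passed the filter, of which the endocytic receptor Lrp2 rose by 0.65 (SE 0.10, adjusted p = 7.91e-04) and the other 5 were not called. The defining markers Cubn, Aqp1, Fbp1, Miox and Dpep1 were above the median in no array. Ureteric bud and collecting duct markers had a summed level of 10.25 to 10.57 in P0 to P3 and 10.76 to 10.95 at P4. Among 7 tested, Gata3 rose by 1.88 and Krt8 by 0.67, and Wnt9b, Hoxb7, Aqp2, Aqp3 and Krt18 were not called. The bud markers Ret and Wnt11 were above the median in no array, and Calb1 in 1. Whether such cells were in the samples, and their part in the transporter values, was not tested.

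The windows before both starts are shown because the genes are neighbours and rose together. Capitals mark GTTAAT, the core of the site read by HNF1 factors, which drive proximal tubule genes (RefSeq, GRCm38.p6, plus strand, 5′ to 3′, chr19:8617746-8617995 for Slc22a6 and chr19:8592932-8593181 for Slc22a8).
Slc22a6: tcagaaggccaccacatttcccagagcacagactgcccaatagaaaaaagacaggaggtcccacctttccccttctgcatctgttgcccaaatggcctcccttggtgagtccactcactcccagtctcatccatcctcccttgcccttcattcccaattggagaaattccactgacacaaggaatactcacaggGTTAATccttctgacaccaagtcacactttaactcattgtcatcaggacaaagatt
Slc22a8: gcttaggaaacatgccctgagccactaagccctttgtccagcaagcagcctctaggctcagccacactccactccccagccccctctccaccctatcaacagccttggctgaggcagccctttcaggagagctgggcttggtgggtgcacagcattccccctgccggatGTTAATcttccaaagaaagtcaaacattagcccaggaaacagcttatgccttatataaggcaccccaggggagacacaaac
The match began 56 bases before the start of Slc22a6 and 81 bases before that of Slc22a8. On both strands these letters are in 6.43% of all windows and in 10 of the 103 windows of members. These belong to 10 of the 74 members, among them Slc34a1 and Slc7a7, which were not called. Searches for TGACNNNGC, the antioxidant response element, and for CAAAGTCCA, a site of HNF4, found neither in the 3 windows printed here. They are held by 10.2% and 0.384% of all windows. Of the 103 windows of members, 10 hold the former and 0 the latter. Slc6a9, called at P4, holds the former before its annotated starts 2 and 3. Of the regulators, Hnf4a was above the median in all 15 arrays and differed at P4 by 0.39 (SE 0.15, adjusted p = 0.188).

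No other organic ion carrier was called. Slc22a17, a receptor for lipocalin, was lower at P4 by 0.43 in size (SE 0.17, adjusted p = 0.197), and passed with the first replicates as a block (0.00817) and within replicates 2 and 3 (0.0397). Its 95% confidence interval, -0.79 to -0.08, was the only one of the 44 uncalled members to reach beyond 1.5-fold. Slc22a13, a urate and nicotinate carrier that was above the median in all 15 arrays, had day means of 7.79 at P0 and 8.16 at P4 and was not called.

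**Figure D3:**
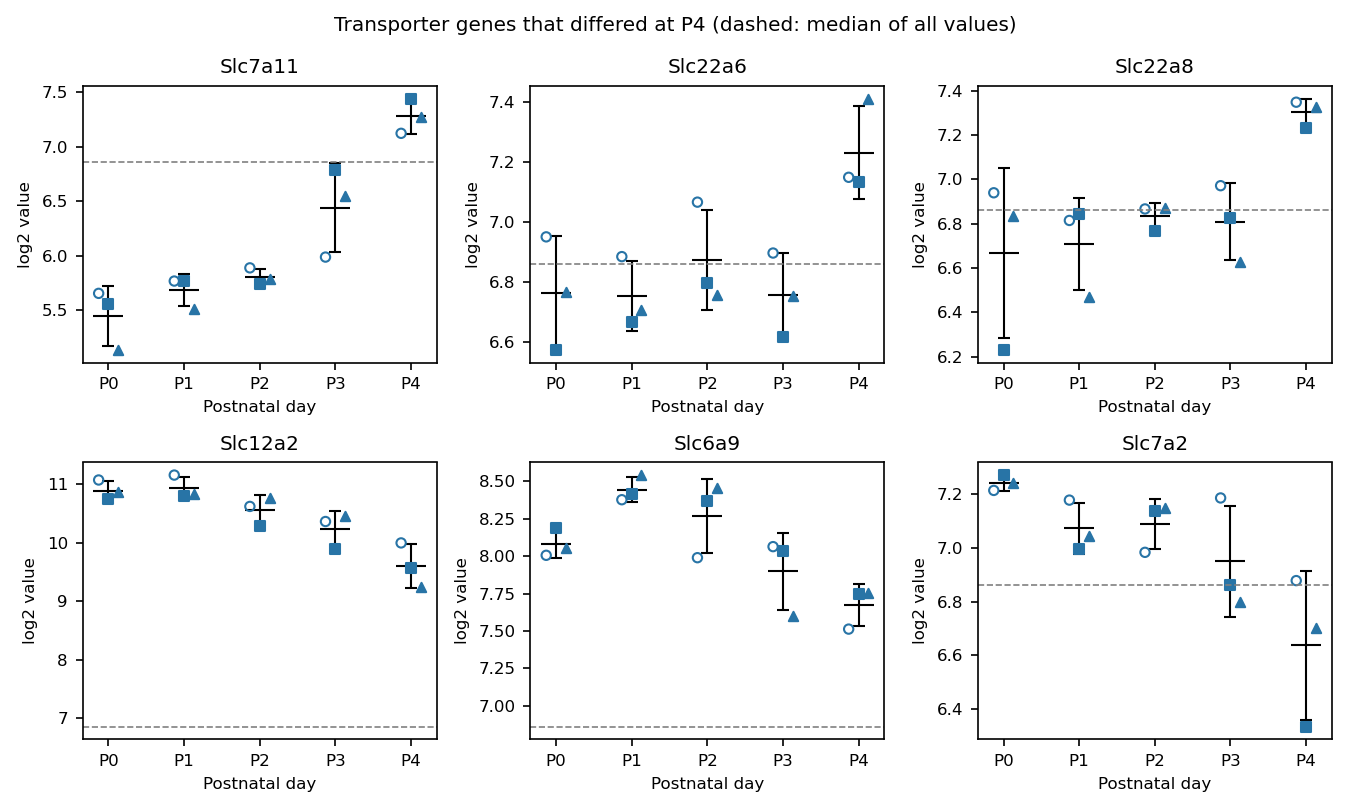
Deposited log2 values (vertical axis) of the 6 transporter genes that differed at P4, by postnatal day (horizontal axis). Open circles are first replicates, squares and triangles replicates 2 and 3, black ticks the mean and bars the SD of the 3 samples of a day, and the dashed line the median of all values. The Slc7a11 means run from 5.45 on the first day to 7.28 on the last, and those of Slc12a2 from 10.89 to 9.61.

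Among the cation-chloride cotransporters Slc12a2 fell, by more than any other of the 50 probe sets that stood for the kept members. Slc12a2 (probe set 10455873) encodes the widely used sodium-potassium-chloride cotransporter that loads cells with chloride and restores cell volume. It was at 9.90, 10.76 and 11.16 as the lowest, median and highest of the P0 to P3 samples and at 10.00, 9.58 and 9.24 at P4. The P4 samples overlapped the rest only through P4 replicate 1, which lay above P3 replicate 2. Its day means were 10.89, 10.94, 10.56, 10.24 and 9.61 from P0 to P4.

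Slc12a2 fell 2.07-fold at P4 (log2 -1.05, SE 0.16, adjusted p = 7.94e-04) and the call held in all 15 omissions of a sample, with adjusted p up to 0.0129. The decline within P0 to P3 was 0.23 per day in size and did not pass (SE 0.06, adjusted p = 0.0736). It did pass with the replicate number as a block (0.00697), though the labels do not say that the numbers pair the samples. From P3 to P4 the difference was -0.64 (SE 0.20, adjusted p = 0.252, and 0.0335 with the block). The cap mesenchyme markers fell over the same days, and their part in this value was not tested.

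Of the other Slc12a members, the potassium-chloride cotransporters Slc12a4 and Slc12a7, which run in the opposite direction across the membrane, differed by -0.01 (95% confidence interval -0.22 to 0.21) and 0.09 (-0.24 to 0.42). The kinases that switch these cotransporters, Wnk1, Wnk3, Wnk4, Stk39 and Oxsr1, were above the median in all 15 arrays, and none was called, with differences of -0.56 to 0.22. Of 8 markers of the loop of Henle and distal tubule outside the families none passed the level filter.

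Slc6a9 (probe set 10507500), a glycine transporter, was highest at P1 and lowest at P4. Its day means were 8.09 at P0, 8.45 at P1, 8.27 at P2, 7.90 at P3 and 7.67 at P4, and its P4 values were 7.51, 7.75 and 7.76. P3 replicate 3, at 7.60, lay among the P4 samples, and all other P0 to P3 samples were higher. It differed among the days (F test, adjusted p = 0.0303) and fell 1.42-fold at P4 (log2 -0.50, SE 0.12, adjusted p = 0.0212). The F test call ended without any of 9 samples (P0 replicate 3, P2 replicates 2 and 3 and every replicate of P1 and P4), with adjusted p up to 0.097. The P4 call ended without any P4 replicate, at 0.0626 to 0.13, and within replicates 2 and 3 (0.0621).

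The other kept members of Slc6a were not called. Slc6a6, the taurine transporter, differed at P4 by -0.04 (95% confidence interval -0.37 to 0.28) and Slc6a8, the creatine transporter, by 0.22 (-0.02 to 0.46). Slc6a13, a carrier of GABA and taurine, had a slope of -0.16 per day over P0 to P3 (SE 0.05, adjusted p = 0.118), which passed with the replicate number as a block (0.0315). It was dim, with 3 arrays above the median, all before P4.

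Of the bicarbonate family, Slc4a3, an anion exchanger, was the only member with 2 probe sets, and they disagreed in size. The one with the higher mean went from 8.20 ± 0.14 (SD, n = 3) at P0 to 7.81 ± 0.12 at P4 and was not called (P4 difference -0.29, SE 0.10, adjusted p = 0.117), but passed with the first replicates as a block (0.0395). The other, which the platform table ties to a single cDNA, went from 8.71 ± 0.27 at P0 and 8.40 ± 0.36 at P2 to 7.11 ± 0.89 at P3 and 6.88 ± 0.47 at P4. It differed at P4 by -1.33 (SE 0.29, adjusted p = 0.012) and in the F test (0.00856). This comparison was added after the values were seen. Whether both probe sets measure the same transcript was not tested.

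**Figure D4:**
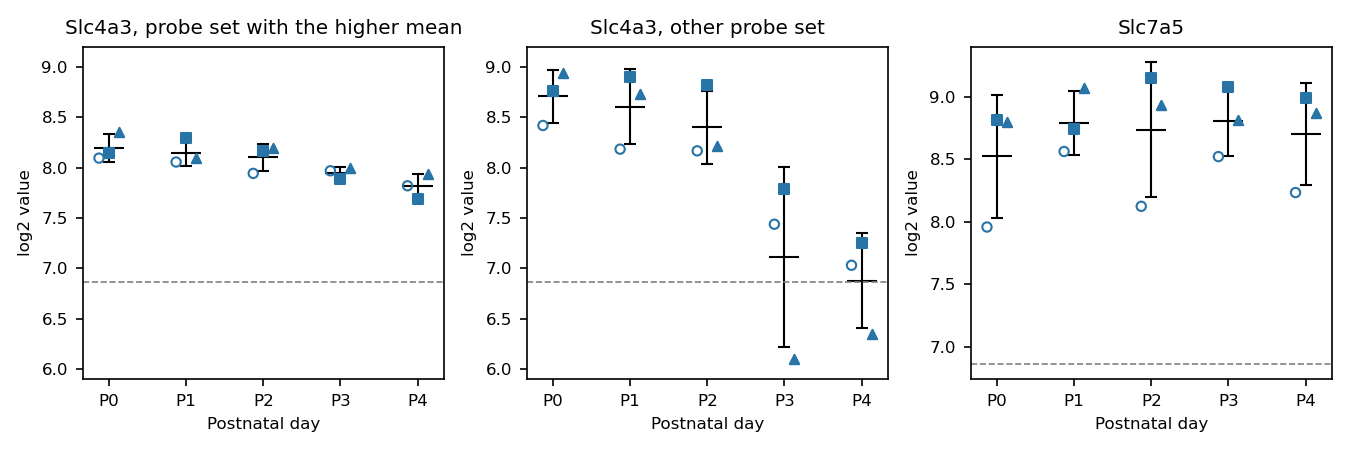
Deposited log2 values (vertical axis) of both Slc4a3 probe sets and of Slc7a5 against the day after birth (horizontal axis). Open circles stand for replicate 1, squares and triangles for replicates 2 and 3, and black ticks and bars for the mean and SD of 3 samples. The second Slc4a3 probe set drops to 7.11 at P3, and the Slc7a5 first replicate is the lowest of each day.

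In the families of sugars (7 kept members), proton exchange (1), carboxylates (2) and phosphate (2) no member was called in the 4 tests, and the P4 differences lay between -0.19 and 0.14. Over all 44 uncalled members the confidence intervals of the P4 difference reached from -0.79 to 0.49, and in 43 of them they stayed within 1.5-fold. Without the replicate block, limma called no member as falling in the slope over P0 to P3 or from P3 to P4, where 2 and 2 had an unadjusted p below 0.05. With the block it called Slc12a2 in both and Slc6a13 in the slope, as given above. Of all genes, 0.446% fell from P3 to P4.

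Genes that work with the transporters were also examined. Of 20 tested partners and regulators 4 rose at P4 and 1 fell, beside 3.41% and 2.32% of all genes. Car4, a membrane-bound carbonic anhydrase that serves bicarbonate reclaim, rose 2.01 on the log2 scale (SE 0.21, adjusted p = 3.14e-05), from a mean of 6.83 to 8.84. Atp1b1, a subunit of the sodium pump that powers sodium-coupled transport, rose by 1.09 (SE 0.16, adjusted p = 6.73e-04), and Nedd4l, a ubiquitin ligase of sodium channels, by 0.78 (SE 0.12, adjusted p = 7.05e-04). Car2, a cytosolic carbonic anhydrase, was the remaining gene that rose. Cftr, a chloride channel, fell by 1.03 (SE 0.14, adjusted p = 3.09e-04). In a list drawn up for the proximal program, 4 of 9 tested genes rose, Lrp2, Cdh6, Cdh16 and Esrrg, and none fell. The list is not limited to regulators or to genes particular to the proximal tubule. Its members Hnf4a and Maf were not called (adjusted p = 0.188 and 0.244, limma, P4 against P0 to P3). Hnf4g, Ppara and Nr1h4 were above the median in no array. Lrp2 also stands in the list of proximal tubule markers and Cdh6 in that of the renal vesicle. Pdzk1 and Slc9a3r1, scaffolds that hold apical transporters in place, differed by -0.02 (SE 0.10) and 0.01 (SE 0.24).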

How the data were processed

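Per the labels, RNA of cells sorted from Crym-EGFP kidneys was amplified in 1 round (WT-Ovation Pico), labelled with biotin and hybridised to 1-colour arrays. The authors deposited log2 values of 35557 probe sets in 15 samples, made with Affymetrix Expression Console. Its version, summarization and background correction were not given in the sources used here, so the folds of dim genes may be understated. Array medians were 6.80 to 6.92. Precision is limited by the number of arrays. Values were used as deposited.

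Gene names came from the platform table: 21789 had 1 symbol, 1621 several and 12147 none, and 21698 matched a current gene by identifier. Genes above the median (6.86) in at least 3 arrays were kept, 11885 of 19938. limma 3.58.1 in R 4.3.3 fitted a mean for each of the 5 days to all 15 samples, with eBayes, Benjamini-Hochberg adjustment across all 11885 and a threshold of 0.05, two-sided. The tests were an F test among the 5 days, P4 against the mean of the earlier days, a linear slope from P0 to P3, and P4 against P3. The fit was tested on simulated data. Replicate numbers came from the titles, in which replicate 1 is unnumbered. Deviations of same-numbered samples from the day means correlated above 0.1 in 18 of 18 pairs among P0 to P3 and 3 of 3 between P3 and P4 (lowest 0.138 and 0.329). Over all 5 days they did so in 29 of 30 pairs (lowest 0.0782). The same correlations were not computed for differently numbered samples, and a shift shared by the first replicates can raise the values given here. They therefore do not show that the numbers pair the samples.

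Named genes are the members called in any test, a list of classical nephron and widely used transporters, and called genes of companion and marker lists, at most 3 a list by the smallest adjusted p. Names outside the rule were picked with their values in view, namely those with a block-only call, Slc4a3, further calls of a list that had 5 or fewer, called markers beside a slope, and uncalled genes given to show a family, a list or a marker. The members and lists were chosen with earlier results of these data known. Some transporters of these families are not reported here. Summed levels of marker lists are the log2 of summed unlogged values. Alternatives were other normalizations, filters, blocks, weights and probe set rules, and the omission of each sample.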

Additional observations from a re-analysis of the deposited data

How the results depend on the processing

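The direction of all 6 called members held under every alternative in which they were tested, and so did the F test and P4 calls of Slc7a11 and Slc12a2. The 75th percentile filter tests 10 members only, which removes Slc7a11, Slc7a2, Slc22a6 and Slc22a8 and leaves 2 called at P4 and 0 in the slope (1 at an unadjusted p below 0.05). For the F test, which called 3 members, the count was 8 with the replicate block, 8 with the first replicates as a block and 9 with array weights, whose fit did not fully converge, while the calls over all genes went from 638 to 1483, 1386 and 1613. For P4, which called 6, it was 8 with the replicate block (1435 of all genes, from 681). For the slope, which called 1, it was 2 after quantile normalization (Slc6a17 in addition), 3 with the replicate block, 3 with the first replicates as a block, 2 within replicates 2 and 3, and 2 with the mean of the probe sets or with the second probe set of Slc4a3. For P4 against P3, which called 1, it was 3 with the replicate block and 3 with the first replicates as a block. It was 0 after quantile normalization, after subtracting array medians, with no filter, with the 75th percentile filter, within replicates 2 and 3, with a variance trend and with array weights, where 1 to 9 members had an unadjusted p below 0.05. The cause was not tested. Over the 15 omissions of a sample the counts were 2 to 4 for the F test, 2 to 6 for P4, 0 to 2 for the slope (0 without P0 replicate 3) and 0 to 1 for P4 against P3. Members above the median numbered 50, but 18 if all 15 arrays had to pass and 10 at the 75th percentile. Symbols with a letter after the number added 1 kept gene and no call. Neither scaling moved the median P4 difference of all genes by over 0.032 in size. Within the first replicates alone, 1 sample a day, the 6 called members had the same sign. Many members lie near the median of all values, where background may hold down a fold.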
